A study of Arabidopsis thaliana with 12 samples.

Results

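AT4G18180 is an Arabidopsis thaliana gene on chromosome 4 that belongs to the pectin lyase-like family. It is 1 of 689 genes that have a probe of their own among the 3439 probes of the array, and it was followed here through that probe, number 2636. No probe annotated with several genes lists it. The gene was chosen by its measured light-dark difference, higher in light from a dim dark level, in these same samples, so its light and dark levels are given as a description and without a test. Its immediate neighbours in the gene order of the TAIR10.1 assembly, WRKY28 on one side and PUP6 on the other, are on no single-gene probe.

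Proteins of the pectin lyase-like family share a right-handed helix of parallel beta strands, and the family includes enzymes that cut or modify pectin. Pectin is the galacturonic acid-rich polysaccharide of the primary cell wall and of the layer that joins neighbouring plant cells. Enzymes of this kind are known from growing organs, pollen, fruit softening and the separation of cells during organ shedding. The sources used here do not give the particular substrate of AT4G18180.

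All 12 samples were total RNA from plants labelled WT, ecotype Landsberg, and all had been given bromoxynil at 500 µM. Bromoxynil is a nitrile herbicide that blocks electron flow at photosystem II. The 6 dark samples were collected at the end of 12 h in darkness. The 6 light samples had the same 12 h of darkness and then 30 min of light, and the comparison asks which transcripts differ shortly after light returns while the herbicide is present. Plants without bromoxynil were not analysed here, so the values describe light against dark under the herbicide in both groups. The labels name no organ. Of 9 genes of the antenna, Rubisco and the Calvin cycle listed as a check of green tissue, 3 were on single-gene probes and were above 0 in all 12 samples. In the dark samples the spot of LHB1B2, an antenna protein of photosystem II, was brighter than 99.1% of probes, that of SBPASE, a Calvin cycle bisphosphatase, than 60.7%, and that of PRK, the phosphoribulokinase of the same cycle, than 24.1%. Since brightness also depends on the probe, these values do not settle which organ was sampled. In plant extracts of this kind, fewer cells of a type and less RNA per cell cannot be told apart.

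Before any result, the 2 samples light 1 and light 2 differed in scale from the rest. Their median deposited intensities over all probes were 3.88 and 3.90, and those of the other 10 samples lay between 0.559 and 0.654, a range of 6.98-fold from lowest to highest over all 12. Deposited values of AT4G18180 can therefore not be compared directly between these 2 samples and the rest. After the deposited values, results are given relative to each sample's own probes, and the light-dark differences and correlations described for named genes were also computed without light 1 and 2.

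AT4G18180 was above 0 in every sample. In the 6 dark samples, numbered 1 to 6, its deposited relative intensities were 0.190, 0.251, 0.246, 0.285, 0.330 and 0.300. In the 6 light samples they were 3.61, 4.67, 0.462, 0.649, 0.862 and 0.704. Every light value lay above every dark value, and the lowest light value, light 3, was 1.40 times the highest dark value, dark 5. Such separation held for 2.22% of the 3381 tested probes on the deposited scale, which is background only. The 2 highest light values are those of the 2 samples whose whole scale is shifted. In numbers 3 to 6, where the sample scales are alike, the mean deposited value was 2.30 times higher in light than in dark. Over all 6 numbers this ratio was 6.84.

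**Figure D1:**
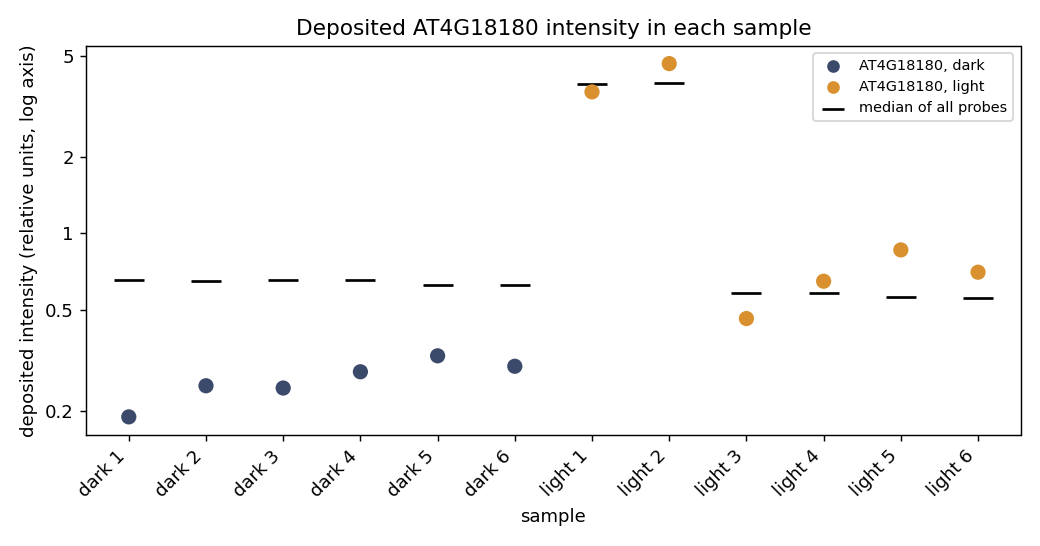
Deposited relative intensity of AT4G18180 (points, log axis) and the median of all probes (black bars) in each of the 12 samples, dark in blue and light in orange. In the dark the gene lies below the sample median in all 6 samples, at 0.190 to 0.330, and in light it lies close to the median, also in light 1 and 2, where median and gene are both shifted upwards.

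Dividing by the sample median removed most of the difference between light 1 and 2 and the other light samples. AT4G18180 stood at 0.290, 0.388, 0.377, 0.436, 0.528 and 0.477 times the median in dark 1 to 6. In light 1 to 6 it stood at 0.931, 1.20, 0.793, 1.12, 1.53 and 1.26 times the median. The spot was thus below the median in all dark samples and above it in 4 of the 6 light samples, with light 1 and light 3 the exceptions. The mean was 0.416 ± 0.0836 in the dark and 1.14 ± 0.260 in light (SD, n = 6 each), a ratio of 2.74. Light 1 and 2, which lay at the top of the deposited values, lay inside the range of light 3 to 6 on this scale. The groups did not overlap, and the lowest light value was 1.50 times the highest dark value. Such separation with light higher was found for 3.31% of the 3381 tested probes on this scale, and nothing is read from it for a gene chosen for its rise.

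The order of brightness within a sample needs no scaling between samples. Among the tested probes, AT4G18180 lay at the 11.2, 15.2, 14.1, 17.6, 21.5 and 19.2 percentile in dark 1 to 6. In light 1 to 6 it lay at the 45.6, 57.3, 38.2, 54.7, 70.3 and 60.2 percentile. It moved from among the dimmer spots to the middle of the range, and in number 5 to the upper part. The brightness of a spot also depends on its probe, so these places are not ranks of transcript abundance. The difference between light and dark was 24.1 percentile points in number 3, the smallest, and 48.8 in number 5, the widest.

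**Figure D2:**
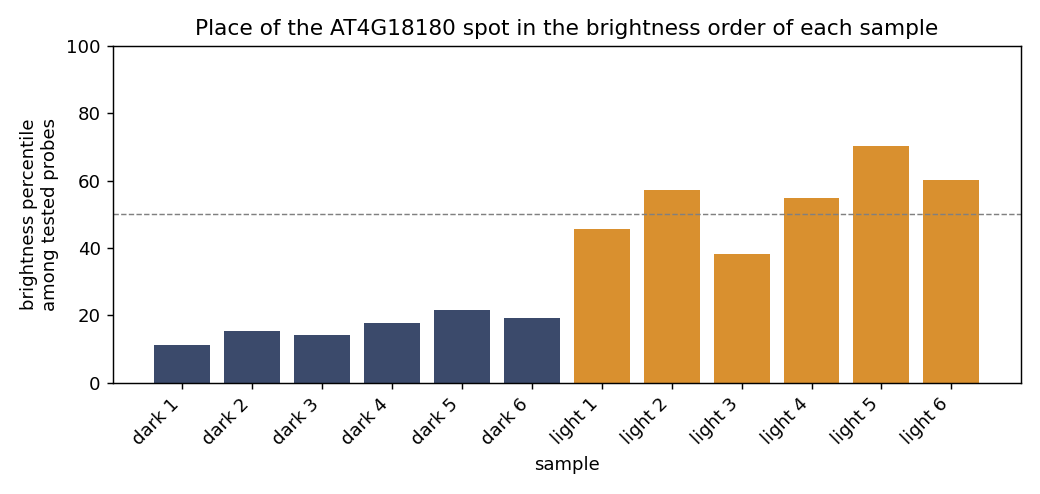
Place of the AT4G18180 spot in the brightness order of each sample, as a percentile among 3381 tested probes, dark in blue and light in orange. The dashed line marks the middle of the order. The dark bars reach 11.2 to 21.5 and the light bars 38.2 to 70.3, and light 1 and 2 lie within the range of the other light samples.

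After quantile normalisation, which gives all samples the same distribution of values, the mean log2 intensity of AT4G18180 was -1.59 ± 0.28 in the dark and -0.12 ± 0.33 in light (SD, n = 6 each). The difference was 1.47 ± 0.17 (standard error of the fit over all probes), or 2.78-fold. The median difference over all tested probes was 0.02, with an SD across probes of 0.51. In this measure 42 probes had a larger positive difference, and among the 677 tested single-gene probes AT4G18180 took place 15. Of the single-gene probes with a larger rise, 13 did not pass the limma test, and 10 of these were listed at 0 in some sample. For AT4G18180 the gap between the lowest light value and the highest dark value was 0.66. On this scale 2.51% of tested probes had light values that all lay above the dark values, and again nothing is read from it here. Without light 1 and 2 the difference was 1.47, and without numbers 1 and 2 in both groups it was 1.35. Leaving out any 1 sample gave 1.39 to 1.57.

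The difference was present in each of the 6 sample numbers. It was 1.67 on the log2 scale in number 1, 1.62 in number 2 and 1.14 in number 3. In numbers 4, 5 and 6 it was 1.39, 1.59 and 1.43. Number 3 was the smallest, and there light was still 2.20-fold above dark. The 6 differences had an SD of 0.199, against SDs of 0.279 within the dark and 0.326 within the light group.

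The sample numbers kept much of their order between dark and light. From lowest to highest, the dark samples ran 1, 3, 2, 4, 6, 5 and the light samples 3, 1, 4, 2, 6, 5. Numbers 1 and 3 were the lowest and numbers 6 and 5 the highest in both groups. Taking the sample number as a block brought the standard error of the difference from 0.171 to 0.088. Numbers 5 and 6 had the highest AT4G18180 values in both groups. They also had the lowest sample medians among the dark samples, 0.624 and 0.629, and among the light samples, 0.562 and 0.559. The part of the sample medians in the AT4G18180 order was not tested.

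**Figure D3:**
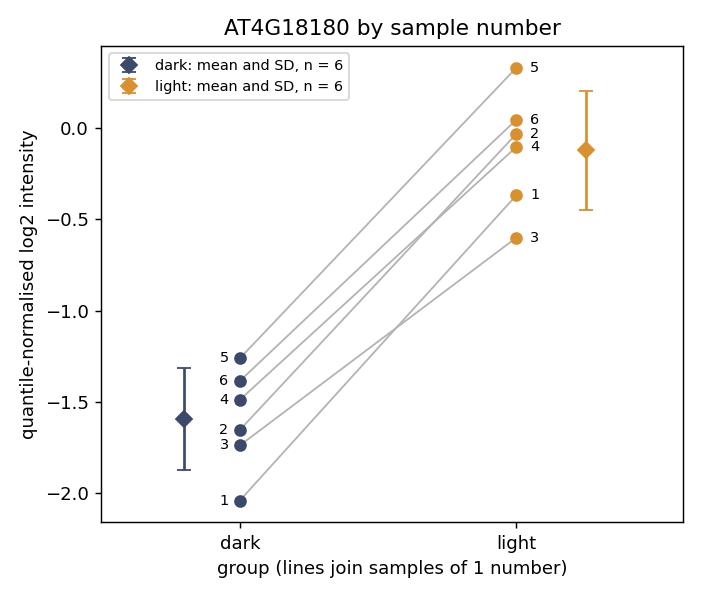
Quantile-normalised log2 intensity of AT4G18180 in the 6 dark and 6 light samples, with lines joining samples of 1 number and diamonds giving the group mean with its SD. All 6 lines go upwards, by 1.14 to 1.67, and numbers 1 and 3 are lowest and 5 and 6 highest in both groups.

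Over the array, samples numbered 1 and 2, 3 and 4, and 5 and 6 tended to be alike, with a consensus correlation within pairs of 0.669. By deviations from the group mean over all tested probes, the partner was the closest sample for 5 of the 6 dark and 4 of the 6 light samples. The lowest correlation within a pair was -0.01 in the dark and -0.07 in light, and the highest between pairs 0.03 and 0.15. Over probes above 0 in every sample the partner was the closest for 6 of 6 in each group. There the lowest within a pair was 0.139 and 0.371, and the highest between pairs -0.09 and 0.318. The correlations run across probes, which are not independent, and the labels do not say whether partners are separate plants or repeat measurements. In AT4G18180 the gap between partners was 0.39, 0.25 and 0.12 in the dark pairs and 0.34, 0.50 and 0.29 in the light pairs. These gaps are smaller than every light-dark difference. By pairs of numbers, numbers 1 and 2 gave a difference of 1.65, numbers 3 and 4 one of 1.26, and numbers 5 and 6 one of 1.51. Over all probes the differences were spread more widely in numbers 1 and 2, with an SD of 1.04, than in numbers 3 and 4 (0.547) or 5 and 6 (0.589). A larger positive difference than that of AT4G18180 was shown by 76 probes in numbers 1 and 2, by 42 in the second pair and by 39 in the third. With the pairs as a random block the standard error became 0.266, and with the pairs averaged 0.216.

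The spread of AT4G18180 within each group was ordinary for the array. Its SD of 0.279 in the dark was above that of 59.7% of tested probes, whose median SD was 0.237. In light its SD of 0.326 was above that of 53.7% of probes, with a median of 0.305.

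Cell wall genes were examined next, through a list of words for pectin enzymes and for other wall enzymes and proteins that was matched to gene names. AT4G18180 was counted apart from the list, whether or not its own name matched. No single-gene probe of another gene had a pectin word in its name, which says nothing of genes whose names carry no description. Of the wider list 5 genes were measured, all above 0 in every sample. With limma, 0 of the 5 passed an adjusted p of 0.05, 0 higher and 0 lower, where 2.84% of all 3381 tested probes passed, 2.07% higher and 0.769% lower in light. At an unadjusted p under 0.05 the count was also 0, and the share over all probes was not counted there. With 5 genes, nothing is read from these counts of 0. Their median difference was 0.13, beside 0.02 over all tested probes, with 4 genes higher and 1 lower in light. Without light 1 and 2 the median was -0.08, and 1 of the 5 was higher.

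CSLA01, a cellulose synthase-like enzyme of the group that makes mannan backbones, had the largest difference of the list, 0.26 (95% CI -0.09 to 0.61, limma adjusted p 0.402). Its dark values ran from -2.13 to -1.24 and its light values from -1.65 to -1.23 on the normalised log2 scale. The ranges overlapped, and its difference was 0.72 in numbers 1 and 2 but 0.03 and 0.02 in the other pairs. Dark 1 and dark 2, at -2.06 and -2.13, were the lowest of its dark samples.

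The other 4 genes encode endoglucanases of glycosyl hydrolase family 9, enzymes known to cut the beta-linked glucan chains of cellulose and related polymers. GH9B12 had a difference of 0.16 (95% CI -0.64 to 0.95, limma adjusted p 0.853). GH9B11, its neighbour on the chromosome, had 0.13 (95% CI -0.43 to 0.69, limma adjusted p 0.821). Whether the spots of these 2 related genes share signal was not tested. In both genes the light 1 and light 2 values were the highest of the light group. GH9B11 reached 0.19 and 0.22 there, against -1.23 to -0.30 in light 3 to 6. GH9B12 reached -0.49 and -0.70, against -2.33 to -1.67 in light 3 to 6. In AT4G18180 light 1 and 2 lay within the range of light 3 to 6.

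GH9B8 had a difference of 0.12 (95% CI -0.36 to 0.61, limma adjusted p 0.804). It was positive in numbers 1 and 2 (0.71) and negative in numbers 3 and 4 (-0.27) and 5 and 6 (-0.07). GH9B16 had the narrowest interval, with a difference of -0.01 (95% CI -0.21 to 0.20, limma adjusted p 0.986). Its light and dark samples covered nearly the same range, -0.87 to -0.45 in the dark and -0.80 to -0.46 in light. The upper ends of all 5 intervals lay at or below 0.95, below the smallest difference of AT4G18180 in any sample number, 1.14. This sets the values side by side and is no test of a difference between genes. It also leaves out 8 probes that carry several genes, all matching the cell wall words, described under other observations. Their differences ran from -1.07 to 1.74. The largest, on a probe that did not pass the limma test, was above the 1.47 of AT4G18180.

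**Figure D4:**
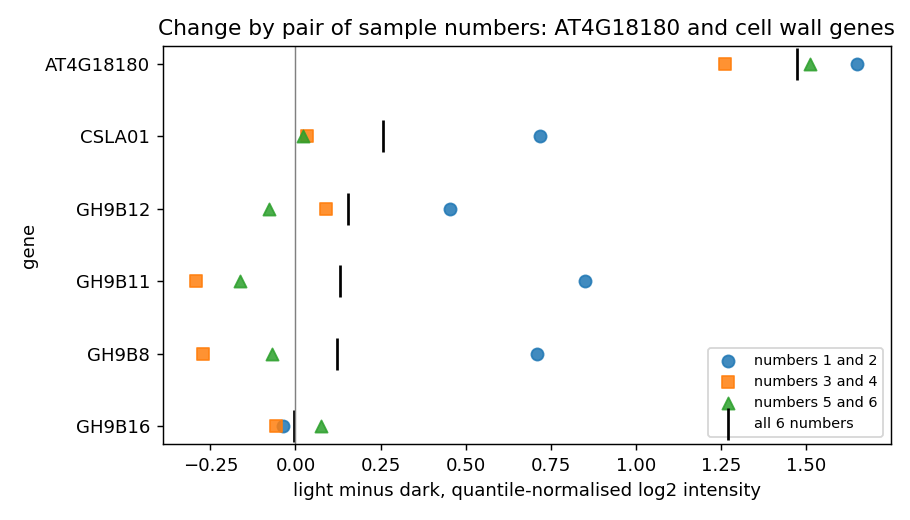
Light minus dark on the quantile-normalised log2 scale for AT4G18180 and the 5 measured genes of the cell wall list, by pair of sample numbers (circles, squares, triangles) and over all 6 numbers (black bars). The 3 points of AT4G18180 lie between 1.26 and 1.65, and those of the 4 GH9B genes lie on both sides of 0.

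The nearest single-gene probes along chromosome 4 were also examined. AT4G17650, with 65 genes between it and AT4G18180, had a difference of 0.00 (95% CI -0.24 to 0.24, limma adjusted p 0.995). AT4G18540, with 62 genes between on the other side, had -0.36 (95% CI -0.83 to 0.11, limma adjusted p 0.392) and was higher in light in 1 of 6 numbers. Neither passed the test, and without light 1 and 2 the differences were -0.12 and -0.44, again with neither past it (limma adjusted p 0.510 and 0.356). In the fit of 12 samples 2.84% of all 3381 tested probes passed, and with so few genes nothing is read from this.

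For scale, the named genes nearest to AT4G18180 in size of rise, among probes that passed the test in the fit of 12 samples, are given here, and AT4G18180 itself is placed beside them as a description. AT4G35660 lay above it, at 3.99-fold beside 2.78-fold. Those below on the log2 scale were AT3G04210 at 1.26 ± 0.20, CML30 at 0.71 ± 0.10 and AT3G50130 at 0.65 ± 0.15. These calls treat the 12 samples as independent. With pairs as a random block AT4G35660 and CML30 still passed (limma adjusted p 8.75e-04 and 0.0419) and AT3G04210 and AT3G50130 did not (0.0556 and 0.547), and with pairs averaged 0 of the 4 passed (0.161 to 0.535). Without light 1 and 2 all 4 passed, with differences of 2.06 for AT4G35660, 0.99 for AT3G04210, 0.71 for CML30 and 0.71 for AT3G50130. The 4 were chosen for passing in the 12 samples, which these fits reuse, so nothing is read from their passing again. Over all 3381 tested probes 16 passed with the random block, 1 with pairs averaged and 98 without light 1 and 2. By pairs of numbers AT4G35660 went from 1.59 in numbers 1 and 2 to 2.29 in numbers 5 and 6, and AT3G04210 from 0.89 in numbers 3 and 4 to 1.77 in numbers 1 and 2. AT4G18180, at 1.26 to 1.65, varied less between pairs than either on the log2 scale. It varied more than CML30, at 0.553 to 0.902, and AT3G50130, at 0.535 to 0.710. This was not tested.

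Genes with a profile like that of AT4G18180 were looked for among 632 other single-gene probes above 0 in all samples, by Pearson correlation of normalised log2 intensity over the 12 samples. These correlations are descriptions, since the samples fall into 2 groups and partners are alike. The closest was AT3G54930, which encodes a protein phosphatase 2A regulatory subunit, with r = 0.941. AT2G47830 (0.872), CML30 (0.867), AT2G44760 (0.860) and AT2G38550 (0.849) followed. CML30 resembles calmodulin, the calcium sensor. The lowest correlations were those of AT3G54550 (-0.911) and of AGL103 (-0.906), a MADS-box protein. The median over the 632 probes was -0.05. All 5 genes at the top were higher in light in 6 of 6 numbers, with differences of 0.24 to 0.71, smaller than the 1.47 of AT4G18180. That shared direction follows from choosing genes by their likeness to a stepped profile. AT2G47830 and AT2G38550 did not pass the light-dark test (limma adjusted p 0.144 and 0.101), nor did AT3G54550 (0.112). AT3G54930, CML30, AT2G44760 and AGL103 passed in the fit of 12 samples, where 2.84% of all 3381 tested probes passed. With pairs as a random block CML30 and AGL103 still passed (limma adjusted p 0.0419 each), and AT3G54930 (0.198) and AT2G44760 (0.472) did not. With pairs averaged none of them passed (limma adjusted p 0.531 to 0.804). AT2G44760 also did not pass without light 1 and 2 (limma adjusted p 0.0726), where the others did. Choosing genes by their likeness or opposition to a stepped profile favours such passes, so nothing is read from these calls. Without light 1 and 2 the correlations of the 5 genes were 0.944, 0.915, 0.844, 0.873 and 0.830, in the same order of naming, and those of AT3G54550 and AGL103 were -0.891 and -0.896. These correlations reuse samples that ranked the genes, which favours values close to the first ones, so nothing is read from them.

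Part of this likeness is the step between dark and light itself, which was used to choose the gene. With each group's mean removed, the correlation with AT4G18180 fell to -0.02 for CML30, 0.313 for AT2G44760 and 0.556 for AT3G54930. It was 0.738 for AT2G47830 and 0.657 for AT2G38550. CML30 and AT4G18180 thus shared the step and not the order of samples within the groups. AGL103 had -0.260 without group means and AT3G54550 -0.759.

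**Figure D5:**
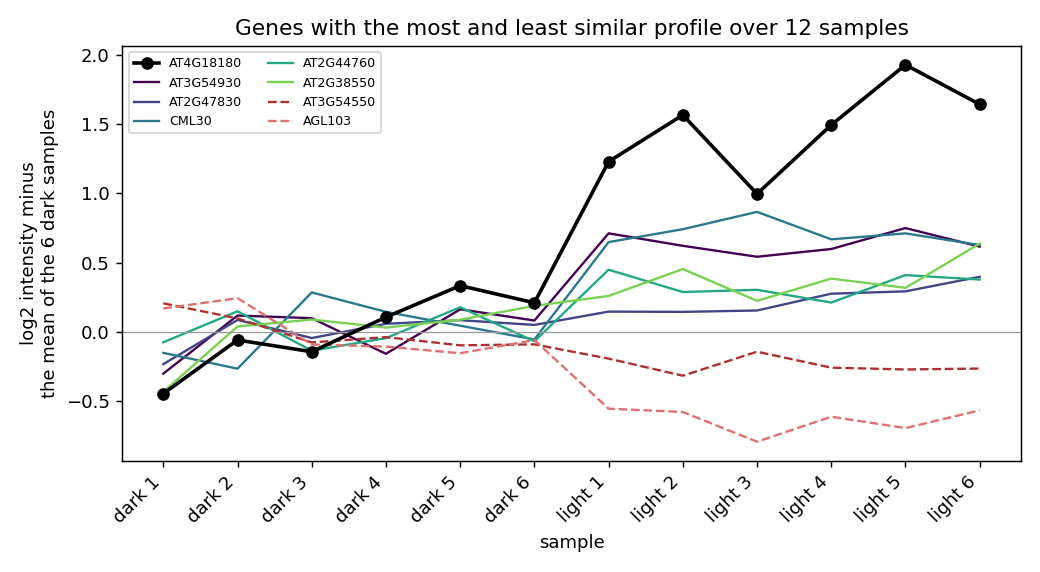
Normalised log2 intensity of AT4G18180 (black), of the 5 single-gene probes with the most similar profile (solid lines) and of the 2 with the most opposite profile (dashed), each minus its own mean of the 6 dark samples. In all 6 light samples the line of AT4G18180 lies above all other lines shown.

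Ranked by the variation within groups alone, other genes came first. AT1G21660 and AT3G09080 both had r = 0.793 with group means removed, SPL, a regulator of spore formation in anthers and ovules, had 0.779, TPP2, a tripeptidyl peptidase, 0.760, and AT5G27860 0.748. The lowest were AT3G04500 (-0.809) and AT4G09970 (-0.806), and the median of the 632 was -0.06. None of these 7 passed the light-dark test (limma adjusted p 0.343 to 0.995), where 2.84% of all 3381 tested probes passed. With 7 genes, nothing is read from this count. Without light 1 and 2 the 5 correlations at the top lay between 0.735 and 0.811, and the 2 at the bottom at -0.846 and -0.864. The samples left are among those that ranked the genes, so such values are favoured by the choice, and nothing is read from them. AT1G21660 ran from 0.22 in dark 2 to 1.24 in dark 6 and from 0.72 in light 1 to 1.45 in light 6. AT3G09080 ran from 0.91 in dark 2 to 1.50 in dark 5 and from 1.24 in light 1 to 1.65 in light 5. In both genes, as in AT4G18180, numbers 5 and 6 were the highest of each group.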

How the data were processed

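The authors deposited relative spot intensities on a linear scale, as the values themselves show. The sources used here give no scanner, background correction, scaling or build, and signal over background is unknown. Groups and sample numbers were taken from the titles, and nothing in the labels says that samples of a group came from separate plants, so p-values reflect the spread of these samples alone, technical or not. Because sample medians differed by more than 1.25-fold, values of 0 were set to the sample's lowest positive value, and the log2 values were then quantile normalised. Of the 3439 probes, 58 at 0 in every sample were left out and 3381 tested (188 with some 0). The fit of light against dark used limma 3.58.1 (R 4.3.3) with lmFit, then eBayes, on 12 samples with no covariate. Its two-sided p-values were adjusted by Benjamini-Hochberg over all tested probes, the threshold was 0.05, and the script was checked on simulated data. The simulated samples were independent of each other, so the check says nothing of calls where partners are alike. The number of samples limits the precision.

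The platform annotation gives 1 gene for 692 probes, and 690 of these genes were found in RefSeq's TAIR10.1 gene table, used for names and gene order. The cell wall list holds genes whose names contain one of 31 words. Named were AT4G18180, the list's members, the nearest measured neighbours, the nearest called genes in size of rise, and the 5 most and 2 least similar profiles by each measure. The gene and the lists were chosen with earlier results of these data known. Deviations from group means correlated between samples of the same number, across probes, at 0.337 to 0.491, and each dark sample correlated best with its own number. The numbers were therefore taken as pairing the samples, from the data and not from the labels, for the differences by number and the replicate block. The main fit, with its intervals, adjusted p-values and calls, did not use this pairing. The random block and the averaged pairs joined samples within a group only. Alternatives covered scaling, leaving out the dimmest 25% of probes, adding a pseudocount at the 10th percentile (0.223), a floor at the 5th percentile, blocks, averaged pairs and left-out samples. For named genes other than the cell wall list, the fits without light 1 and 2 and with the pairs were added after the data were seen.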

Additional observations from a re-analysis of the deposited data

How the results depend on the processing

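For AT4G18180 the light-dark difference of 1.47 stayed within 1 SD of the samples (0.303) under 20 of 22 alternatives and was positive under all 22. The blocks, the averaged pairs and the filter on dim probes leave this difference unchanged by construction, so they could not move it. The gene was also chosen for its rise, so nothing is read from the shared sign. Without scaling it was 2.20, where the median over all probes was 0.78, so 1.42 above that median. With the pseudocount it was 1.03, since an added constant compresses dim values by construction. With the sample number as a replicate block it was 1.47, and leaving out each sample gave 1.39 to 1.57. Of the 5 cell wall genes 0 were called under all 22 alternatives, the replicate block included, and the lowest adjusted p in the list ran from 0.255 to 0.820. The filter on dim probes left 2 of the 5. With so few genes, nothing is read from these counts. Over all probes, 96 were called, 70 higher and 26 lower in light. The count was 2 without scaling, 145 with the floor, 16 with pairs as a random block (15 higher), 1 with pairs averaged (0 higher, 1 lower), and 116 with the replicate block. Leaving out each sample gave 46 to 86, with 46 without dark 3, 57 without dark 4, 60 without light 6 and 59 without light 5. It was 98 without light 1 and 2 and 118 without numbers 1 and 2 of both groups. For these counts the cause was not tested. Signal over background is unknown, which limits what the dim dark values of AT4G18180 can show.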

Other observations

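On the array 8 further probes carry several genes that all match the cell wall words. This count was made after the data were seen, and no gene is named from these probes. With limma, 0 of the 8 passed an adjusted p of 0.05 (lowest 0.388), where 2.84% of all 3381 tested probes passed. At an unadjusted p under 0.05 the count was also 0, and the share over all probes was not counted there. With so few probes, nothing is read from these counts. Their differences between light and dark ran from -1.07 to 1.74 on the log2 scale, with a median of -0.13, beside 0.02 over all tested probes. Without light 1 and 2 they ran from -0.49 to 2.15, with a median of -0.09, and 0 passed. In that fit 98 probes over the array passed.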
